A study of Mus musculus with 9 samples.

Results

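LINE-1 elements are the autonomous retrotransposons of mammals, and 99 of the 1146 repeat subfamilies counted in these libraries were older LINE-1 subfamilies. They were chosen by name: every subfamily starting with L1 but not with L1Md, the prefix of the young mouse LINE-1 lineages. The prefix was matched with its case, so that L1MD, L1MDa and their relatives, which belong to an old branch, were kept. Of the 99, 12 carried rodent names (9 starting with L1_ and 3 with L1VL) and are called rodent-specific here. The other 87 carried names of the L1M and L1P branches and are called ancient. The files hold no consensus sequence or age of these elements, so the division rests on the names alone.

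A full-length LINE-1 has an internal promoter and encodes an RNA-binding protein and a reverse transcriptase with endonuclease activity, with which it copies itself into new sites. Most copies are truncated at their 5′ end, and copies of the old subfamilies have gathered mutations for so long that they no longer move. Many lie within genes, so a read on such a copy may belong to a longer transcript that merely contains it. DNA methylation silences the promoter of the young mouse lineages, and Uhrf1 recruits the maintenance methyltransferase Dnmt1 to newly replicated DNA.

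Satellite cells, which are the resident stem cells of muscle, came from hindlimbs of 9-week-old mice and had been activated in culture. Repeat counts were available for 3 Control libraries, from mice labelled as treated with oil, and 3 Mutant libraries, from tamoxifen-treated mice deficient for Uhrf1 in satellite cells. Both groups were grown for 3 days on Matrigel at 5000 cells/cm2, and their total RNA was depleted of ribosomal RNA before stranded sequencing. The injection protocol (tamoxifen in corn oil, 150 µl of 20 mg/ml for 5 days, to induce Cre recombination) is attached to both groups, although Control is labelled oil. Tamoxifen and the loss of Uhrf1 cannot be told apart in this comparison. For the Cre driver, the strain and the targeted allele, nothing is given in the sources used here. The 3 tamoxifen-treated Cre Control libraries were not analysed here. Whether the 3 libraries of a group are separate mice is not stated, so each p-value reflects the scatter of these libraries, which may be technical.

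The library labelled Control 3 stood apart from the other Controls before any LINE-1 was considered. Subfamilies of the IAP retroviruses summed to 6984 and 8629 CPM in Control 1 and Control 2, but to 160418 CPM in the library labelled Control 3, which lay within the Mutant range of 106643 to 210099 CPM. Results are therefore given with and without that library. Levels are repeat counts scaled to a common library total with TMM factors (CPM), and hence relative to repeat reads alone. The libraries held 1794698 to 2245124 repeat counts each. Older LINE-1 made up 4.73% (95% Wilson interval 4.70 to 4.75, counting error only) of them in Mutant 3 and 6.61% (6.58 to 6.65) in Control 2, the lowest and the highest of the 6. The labelled cell type had its markers: per the authors' deposited gene table, 9 satellite cell and myoblast markers, Pax7 and Myod1 among them, summed to 2717 TPM in Control and 2691 TPM in Mutant. Of these 9, 7 passed in the authors' deposited gene table: Pax7, Des and Megf10 rose, and Myod1, Cdh15, Itga7 and Vcam1 fell. Of all 22631 genes of the authors' deposited gene table, 17.1% passed, with 9.02% higher and 8.11% lower. The 7 fibroblast markers summed to 245 TPM in Control and 256 TPM in Mutant by the authors' deposited gene table, and none passed. Most of both sums was Col3a1, at 179 and 181 TPM in the authors' deposited gene table. There, Pdgfra, Col1a1, Dcn and Ly6a had higher TPM in Mutant, and Thy1 and Lum had lower. The 8 endothelial markers summed to 28.0 and 24.9 TPM in the authors' deposited gene table. Pecam1 and Cdh5 fell, Tek rose and the others did not pass. The 7 of 10 macrophage and leukocyte markers with values summed to 34.2 and 115 TPM, Control first, by the authors' deposited gene table. Most of that sum was Laptm5, which rose from 25.1 to 84.8 TPM; by the authors' deposited gene table Cd68 rose as well, from 3.46 to 6.27 TPM. The 5 others did not pass in the authors' deposited gene table: Fcer1g, Csf1r, Cd14 and Lyz2 had higher values in Mutant, and Ptprc stood at 0.381 and 0.303 TPM. More such cells and more RNA per cell cannot be told apart in bulk RNA, and their part in the repeat counts was not tested.

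Across the older LINE-1 subfamilies as a set, levels in Mutant and Control lay close together. Of the 99, 97 passed the filter on low counts; L1M3a and L1M2a1 did not. With all 6 libraries, edgeR's quasi-likelihood test called 0 of the 97, at a background of 0% of the 984 repeat subfamilies tested. At an unadjusted p below 0.05 there were 14 members with lower and 3 with higher values in Mutant, beside 4.67% and 6.61% of all subfamilies tested. The median log2 fold change of the 97 was −0.072, against −0.0027 over all subfamilies tested, and 72 of the 97 were negative (51% of all). Mutant lay below all 3 Controls in 26 members and above them in 7, where 9.25% and 8.54% of all subfamilies did so. The 26 members that lay lower make up 26.8% of the 97. Without the library labelled Control 3 the groups did not overlap in 42 members with Mutant lower and in 13 with Mutant higher, beside 18.2% and 21.3% of all subfamilies.

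With TMM scaling, the fit also gives an interval for each difference. It reflects the scatter of these libraries and leaves out any error of the scaling. With library size alone the median log2 fold change of the 97 was −0.27. For 75 of the 97 members the 95% interval of the log2 fold change lay within 0.5 on either side of 0, as it did for 59% of all subfamilies tested. The count was 70 when the library labelled Control 3 was left out, against 54.8% of all. Of the 66 members with a mean of at least 100 CPM, 62 had a log2 fold change within 0.2 of 0, and their median SE was 0.058. That is 93.9% of them, against 85.3% of the 457 subfamilies at that level. The 31 members below 100 CPM had a median SE of 0.16, and their log2 fold changes ran from −0.63 to 0.39. The extremes of that range were L1MEh and L1M6B, singled out after their values were seen. L1MEh stood at 23.8, 25.2 and 21.8 CPM in Control and 14.2, 13.3 and 18.3 CPM in Mutant, with a log2 fold change of −0.63 (SE 0.18), or −0.68 (SE 0.22) without the library labelled Control 3. L1M6B stood at 30.7, 34.5 and 33.4 CPM in Control and 30.4, 51.1 and 48.3 CPM in Mutant, with a log2 fold change of 0.39 (SE 0.20), or 0.40 (SE 0.22) without the library labelled Control 3. Neither passed in edgeR's test with or without that library.

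Without the library labelled Control 3, edgeR called 3 members: L1_Mm and L1ME3Cz fell and L1M2b rose in Mutant. The background was 7.34% of the 994 subfamilies tested, with 0.402% called lower and 6.94% called higher. L1_Mm and L1ME3Cz are 2 of the 4 subfamilies of the whole table that this fit called lower. At an unadjusted p below 0.05, 28 of the 97 were lower and 4 higher (7.44% and 13.5% of all). The median of the 97 was then −0.097, against 0.0044 over all subfamilies. DESeq2 called the same 3 members over all 6 libraries (background 2.38%, with 0.42% lower and 1.96% higher). It called them again without the library labelled Control 3 (background 6.45%, with 0.307% lower and 6.14% higher). A limma voom fit that weights libraries by their quality called L1ME3Cz and L1M2b over the 6 libraries (0.711% lower and 3.96% higher); the library labelled Control 3 received the lowest weight, 0.513, and Mutant 1 the next, 0.656.

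The authors' deposited repeat table rests on the 5 other libraries. A DESeq2 fit of the counts without the library labelled Control 3 gave the authors' mean level within 4.70e-08 percent and their log2 fold change with differences of at most 0.0013 for each of the 1093 subfamilies in that table. With all 6 libraries the log2 fold changes differed from the authors' deposited values by up to 4.25. The authors' deposited table likewise has L1_Mm, L1ME3Cz and L1M2b as its members with an adjusted p below 0.05, with log2 fold changes of −0.49, −0.38 and 0.67. The background in the authors' deposited table was 6.25%, with 0.298% lower and 5.95% higher of 1008 subfamilies with an adjusted p. It rests on the same counts and is not independent of the fits above.

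The rodent-specific and the ancient members were then compared as classes. The 12 rodent-specific members summed to 17618, 18028 and 16812 CPM in Control 1, 2 and 3 and 17648, 16932 and 16441 CPM in Mutant 1, 2 and 3. These values overlapped between the groups, and the library labelled Control 3 was the lowest Control. Their means were 17486 ± 619 CPM (Control) and 17007 ± 607 CPM (Mutant) (SD, n = 3 each), a log2 difference of −0.040, or −0.068 without the library labelled Control 3. The 85 tested ancient members summed to 39555, 39583 and 38408 CPM in Control 1, 2 and 3 and 38346, 36864 and 37386 CPM in Mutant 1, 2 and 3. Each Mutant sum lay below each Control sum here, the nearest being Mutant 1 and the library labelled Control 3. The means were 39182 ± 671 CPM (Control) and 37532 ± 751 CPM (Mutant) (SD, n = 3 each), a log2 difference of −0.062, or −0.076 without that library. As a percent difference of the means, Mutant against Control was −4.21% for the ancient class and −2.74% for the rodent-specific class.

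The ratio of the class sums needs no scaling between libraries. Its log2 was −1.17, −1.13 and −1.19 in Control 1, 2 and 3 and −1.12, −1.12 and −1.19 in Mutant 1, 2 and 3. The groups overlapped, and the means (−1.16 ± 0.029 and −1.14 ± 0.037, SD, n = 3 each) differed by 0.022, less than the spread within either group. Without the library labelled Control 3 the difference was 0.0083. The ratio of sums therefore showed no difference between the classes beyond the scatter of the libraries, and it was not tested. With medians of members in place of sums the contrast was 0.046. No p is given for sums over the members, which were chosen with earlier results known.

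**Figure D1:**
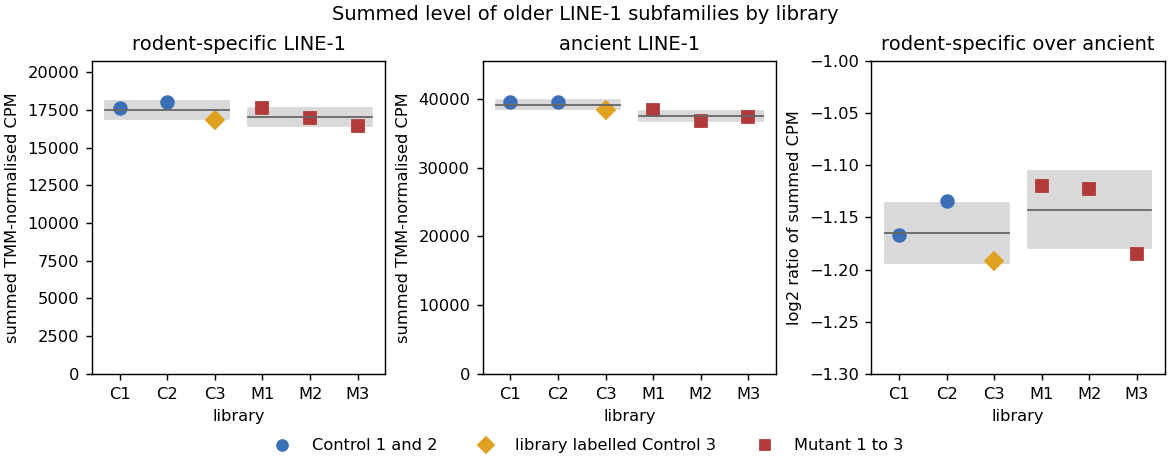
Summed TMM-normalised CPM of the rodent-specific and the ancient LINE-1 subfamilies and the log2 ratio of both sums, for Control libraries C1 to C3 and Mutant libraries M1 to M3; lines are group means and grey bands 1 SD (n = 3). The 3 Mutant points of the ancient class lie below the 3 Control points, whereas the groups overlap for the rodent-specific class and for the ratio, whose axis does not start at 0.

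Member by member, the Mutant libraries scattered by a similar amount in both classes, and the Control libraries less in the rodent-specific class. The median coefficient of variation was 3.82% in Control and 5.16% in Mutant for the rodent-specific class, and 5.62% and 5.58% for the ancient class. The median log2 fold change was −0.027 for the rodent-specific members and −0.074 for the ancient ones, and −0.047 and −0.10 without the library labelled Control 3. In 10 of the 12 rodent-specific and 49 of the 85 ancient members that library lay below both other Controls, where 37.5% of all subfamilies did so. It lay above both in 19 of the 97, against 41.3% of all subfamilies. The rodent-specific fold changes ran from −0.40 to 0.096, and the ancient ones from −0.63 to 0.60. The lowest rodent-specific mean was 179 CPM (L1VL1), so the 31 members below 100 CPM were all ancient. Their median SE was 0.16, against 0.058 for members of at least 100 CPM. Neither the ranges nor the coefficients of variation therefore compare the classes at like levels.

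Among the rodent-specific members, the 4 whose names point to the genus Mus had log2 fold changes between −0.087 and −0.0015. L1_Mus1 stood at 3629, 3682 and 3503 CPM in Control 1, 2 and 3 and 3615, 3637 and 3552 CPM in Mutant 1, 2 and 3. L1_Mus3 stood at 3608, 3700.1 and 3520.2 CPM in Control 1, 2 and 3 and 3677, 3530.4 and 3459 CPM in Mutant 1, 2 and 3. Both groups overlapped for each, with log2 fold changes of −0.0015 (SE 0.034) and −0.022 (SE 0.038). Their 95% intervals, −0.081 to 0.078 and −0.11 to 0.067, were the narrowest of the 97 members. They gave −0.021 (SE 0.037) and −0.039 (SE 0.041) without the library labelled Control 3. L1_Mus2 stood at 1893, 1908 and 1764 CPM in Control and 1890.2, 1784 and 1765 CPM in Mutant, and L1_Mus4 at 1075, 1076 and 1015 CPM in Control and 1101, 943 and 937 CPM in Mutant. In L1_Mus4 the values of Mutant 2 and Mutant 3 lay below every Control, while Mutant 1 lay above them. The log2 fold changes of L1_Mus2 and L1_Mus4 were −0.033 (SE 0.048) and −0.087 (SE 0.070); neither passed the threshold (edgeR adjusted p = 0.802 and 0.638).

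The members whose names point to murine rodents had values on both sides of 0. L1_Mur2 stood at 1131, 1217 and 1167 CPM in Control 1, 2 and 3 and 1228, 1309 and 1219.8 CPM in Mutant 1, 2 and 3. It was the rodent-specific member in which every Mutant library lay above every Control library, as in 8.54% of all subfamilies tested. The gap between Mutant 3 and Control 2 was narrow. The log2 fold change of L1_Mur2 was 0.096 (SE 0.049), or 0.093 (SE 0.055) without the library labelled Control 3. It did not pass in either fit (edgeR adjusted p = 0.471 and 0.389). L1_Mur3 stood at 2328, 2378 and 2148 CPM in Control 1, 2 and 3 and 2258, 2152 and 1987 CPM in Mutant 1, 2 and 3, with Mutant 3 the lowest of the 6. L1_Mur1 stood at 359.7, 355 and 334 CPM in Control 1, 2 and 3 and 357, 342 and 345 CPM in Mutant 1, 2 and 3 and overlapped. The log2 fold changes of L1_Mur3 and L1_Mur1 were −0.100 (SE 0.060) and −0.0064 (SE 0.052), and −0.14 (SE 0.055) and −0.037 (SE 0.059) without the library labelled Control 3. L1_Rod, whose name points to rodents, stood at 1070.2, 1018 and 904 CPM in Control and 987, 956 and 859.6 CPM in Mutant, with log2 fold changes of −0.095 (SE 0.078) and, without that library, −0.16 (SE 0.063).

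For the 3 L1VL members the differences were small as well. L1VL1 stood at 181, 175 and 168 CPM in Control and 196, 191 and 162 CPM in Mutant, L1VL2 at 953, 970.0 and 890.3 CPM in Control and 1009.6, 871 and 924 CPM in Mutant, and L1VL4 at 837, 832 and 865 CPM in Control and 822, 783 and 806 CPM in Mutant. Only in L1VL4 did the groups not overlap, with Mutant lower, as in 9.25% of all subfamilies tested. L1VL1, L1VL2 and L1VL4 had log2 fold changes of 0.068 (SE 0.081), −0.0049 (SE 0.065) and −0.072 (SE 0.044). None of the 3 passed in edgeR's test with or without the library labelled Control 3 (adjusted p from 0.559 to 0.981).

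**Figure D2:**
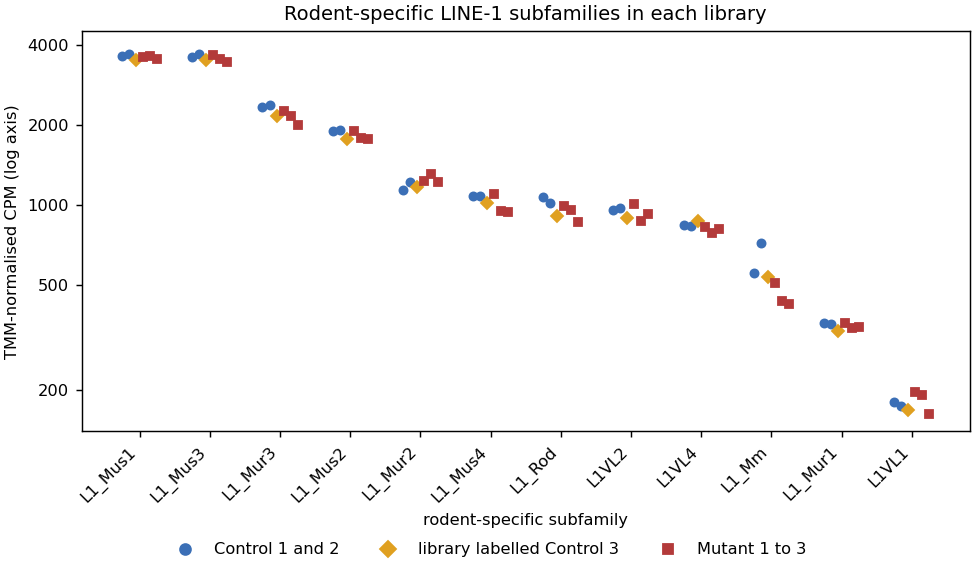
TMM-normalised CPM (log axis) of the 12 rodent-specific LINE-1 subfamilies in each of the 6 libraries, ordered by mean level; each point is 1 library. For L1_Mm the 3 Mutant points lie below the 3 Control points, from 424 to 508 against 533 to 718 CPM, while for L1_Mus1 and L1_Mus3 the points of both groups lie together.

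L1_Mm was the rodent-specific member that differed. It stood at 554, 718 and 533 CPM in Control 1, 2 and 3 and 508, 434 and 424 CPM in Mutant 1, 2 and 3. The groups did not overlap, but the Controls were uneven: Control 2 lay well above the other Controls, and Mutant 1 came close to the library labelled Control 3. Over the 6 libraries its log2 fold change was −0.40 (SE 0.12), with an edgeR adjusted p of 0.331. Leaving out the library labelled Control 3 gave −0.48 (SE 0.11) and an edgeR adjusted p of 0.0211, a level 0.715 times that of Control. DESeq2 called it over the 6 libraries (log2 fold change −0.41, adjusted p = 0.0138), and limma voom with quality weights did not (adjusted p = 0.0702). Its value depended on Control 2 as well: without that library the log2 fold change was −0.25 (SE 0.090), with an edgeR adjusted p of 0.656. Over the leave-one-out fits the adjusted p ran from 0.0211 to 0.723 (edgeR). These values rest on 782 to 1850 counts per library.

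The ancient names fall into branches, which run from L1MA to L1ME in the order of the nomenclature, from younger to older, beside numbered L1M names. Counts cover all copies of a subfamily, and neither copy number nor length is in the files, so levels of different subfamilies are shares of reads and are not ranked here. The 9 L1MA members summed to 4407 ± 185 CPM (Control) and 4269 ± 89.3 CPM (Mutant) (SD, n = 3 each), a log2 difference of −0.046, or −0.081 without the library labelled Control 3. L1MA4 stood at 1156, 1100 and 1135 CPM in Control 1, 2 and 3 and 1066, 1031 and 1057 CPM in Mutant 1, 2 and 3, lower in each Mutant library, with a log2 fold change of −0.10 (SE 0.042), or −0.10 (SE 0.049) without the library labelled Control 3. L1MA6 stood at 790.4, 834 and 761 CPM in Control 1, 2 and 3 and 859.7, 846 and 867 CPM in Mutant 1, 2 and 3. It went the other way, with each Mutant library above each Control library and a log2 fold change of 0.11 (SE 0.049) (0.078 SE 0.051 without that library); neither passed in edgeR's test (adjusted p = 0.419 and 0.454). L1MA5 stood at 587, 588 and 477 CPM in Control and 575, 508 and 502 CPM in Mutant; the library labelled Control 3 was the lowest of the 6, and the log2 fold change moved from −0.061 (SE 0.095) to −0.15 (SE 0.067) without it. Of the 9 members, 7 had a negative log2 fold change, and in 4 the Mutant libraries lay below all Controls, beside 51% and 9.25% of all subfamilies tested.

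Against 51% of all subfamilies tested, all 7 members of the L1MB branch had negative log2 fold changes, within a narrow range from −0.16 to −0.069. Their sums were 7506, 7326 and 6979.9 CPM in Control and 7057, 6752 and 6689.8 CPM in Mutant. Mutant 1 lay above the library labelled Control 3, so the groups overlapped with it and not without it. The means were 7270.5 ± 267 CPM (Control) and 6833 ± 196 CPM (Mutant) (SD, n = 3 each), a log2 difference of −0.089, or −0.12 without that library. L1MB7 stood at 2035, 1993 and 1906 CPM in Control 1, 2 and 3 and 1928, 1820.5 and 1811 CPM in Mutant 1, 2 and 3, with a log2 fold change of −0.094 (SE 0.044), or −0.12 (SE 0.046) without the library labelled Control 3. L1MB8 ranged over 1429 to 1563 CPM in Control and 1339.8 to 1507 CPM in Mutant, and L1MB3 over 1127 to 1277 and 1104 to 1219.8 CPM. None of the 7 passed the threshold with or without the library labelled Control 3. Without it, 6 of them had an unadjusted p below 0.05 in edgeR's test, where 7.44% of all subfamilies were lower at that level. With it the count was 2, against 4.67% of all.

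The 11 L1MC members were likewise all negative, from −0.24 to −0.0019, where 51% of all subfamilies tested were. In 10 of them the groups overlapped. In 1 they did not, with Mutant lower, as in 9.25% of all subfamilies. The L1MC members summed to 6557 ± 254 CPM (Control) and 6182 ± 209 CPM (Mutant) (SD, n = 3 each). This was a log2 difference of −0.085, or −0.11 without the library labelled Control 3. L1MC4 stood at 1351, 1251 and 1223 CPM in Control 1, 2 and 3 and 1258, 1104 and 1135 CPM in Mutant 1, 2 and 3; Mutant 1 lay above 2 of the Controls, and the log2 fold change was −0.13 (SE 0.064), or −0.16 (SE 0.063) without the library labelled Control 3. L1MC1 and L1MC5 gave −0.070 (SE 0.054) and −0.040 (SE 0.057). The 6 L1MD members summed to 2926 ± 33.8 CPM (Control) and 2816 ± 62.4 CPM (Mutant) (SD, n = 3 each). This was a log2 difference of −0.055, or −0.064 without the library labelled Control 3. Of the 6, 5 had negative values, against 51% of all subfamilies tested. In 2 of them Mutant lay below all Controls, against 9.25% of all. L1MD stood at 1047, 1040.2 and 1015 CPM in Control 1, 2 and 3 and 979, 970.0 and 983 CPM in Mutant 1, 2 and 3, so each Mutant library was below each Control library by a small margin, with a log2 fold change of −0.081 (SE 0.039), or −0.094 (SE 0.047) without the library labelled Control 3. L1MD2 was nearly level, at 724 to 743 CPM in Control and 704 to 736 CPM in Mutant, and L1MD3 at 401 to 443 and 387 to 415 CPM. None of the 17 members of both branches passed in edgeR's test.

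The L1ME branch, with 27 members, was spread on both sides of 0, from −0.63 to 0.34. Its sum hardly differed, 7907 ± 272 CPM (Control) and 7822 ± 163 CPM (Mutant) (SD, n = 3 each), and its log2 difference changed sign without the library labelled Control 3, from −0.015 to 0.0096. L1ME1 stood at 1103, 1152 and 1092 CPM in Control 1, 2 and 3 and 1092, 1078 and 1026 CPM in Mutant 1, 2 and 3. It overlapped between the groups, with a log2 fold change of −0.066 (SE 0.046), or −0.082 (SE 0.051) without the library labelled Control 3. L1ME4a stood at 681, 707 and 759 CPM in Control 1, 2 and 3 and 703, 781 and 887 CPM in Mutant 1, 2 and 3; its highest value was that of Mutant 3, and its log2 fold change was 0.14 (SE 0.088), or 0.19 (SE 0.084) without the library labelled Control 3.

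L1ME3Cz was the L1ME member with a called decrease. It stood at 258, 243 and 228 CPM in Control 1, 2 and 3 and 195, 196 and 189 CPM in Mutant 1, 2 and 3. The 3 Mutant values were close together and lay below each Control value, and the library labelled Control 3 was the lowest Control. Over the 6 libraries its log2 fold change was −0.33 (SE 0.060), with an edgeR adjusted p of 0.134. Leaving out the library labelled Control 3 gave −0.37 (SE 0.070) and an edgeR adjusted p of 0.00778, a level 0.772 times that of Control. Its adjusted p over the 6 libraries was the lowest of the 97 members. DESeq2 and limma voom with quality weights called it over the 6 libraries, with adjusted p of 0.0451 and 0.0271. It rests on 353 to 627 counts per library.

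L1MEg did not follow the labels. It stood at 759, 732 and 1243 CPM in Control 1, 2 and 3 and 1165, 793 and 790.4 CPM in Mutant 1, 2 and 3. The library labelled Control 3 and Mutant 1 were high and close to each other, and the 4 other libraries were low, whichever group they belonged to. The log2 fold change was 0.0086 (SE 0.23) over the 6 libraries, with the widest error of the named members, and 0.30 (SE 0.14) without the library labelled Control 3 (edgeR adjusted p = 0.988 and 0.266). The IAP sum does not share this order, since Mutant 1 had the lowest IAP sum of the Mutant libraries and Mutant 3 the highest.

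The numbered L1M members, 23 of 25 of which were tested, summed to 10168, 10239 and 9828 CPM in Control and 9695, 9448 and 9589 CPM in Mutant. Each Mutant sum lay below each Control sum, with means of 10078 ± 219 CPM (Control) and 9577 ± 124 CPM (Mutant) (SD, n = 3 each) and a log2 difference of −0.073, or −0.091 without the library labelled Control 3. L1M4, L1M5 and L1M2 carry most of that sum. L1M5 stood at 2644, 2699.8 and 2512 CPM in Control 1, 2 and 3 and 2445, 2383 and 2460.3 CPM in Mutant 1, 2 and 3, each Mutant library below each Control library, with a log2 fold change of −0.11 (SE 0.040), or −0.14 (SE 0.041) without the library labelled Control 3. L1M4 stood at 2999.8, 2920.2 and 2808 CPM in Control and 2823, 2654 and 2746 CPM in Mutant, where Mutant 1 lay just above the library labelled Control 3. L1M2 ranged over 1865 to 1944 CPM in Control and 1758 to 1859 CPM in Mutant. L1M4 and L1M2 gave log2 fold changes of −0.086 (SE 0.041) and −0.084 (SE 0.041), and none of the 3 passed in edgeR's test (adjusted p from 0.408 to 0.454).

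L1M2b had the highest log2 fold change of the 97 members over the 6 libraries. It stood at 86.6, 98.6 and 108 CPM in Control 1, 2 and 3 and 112, 160.0 and 172 CPM in Mutant 1, 2 and 3. Mutant 2 and Mutant 3 were clearly higher, whereas Mutant 1 exceeded the library labelled Control 3 by a small margin. Over the 6 libraries its log2 fold change was 0.60 (SE 0.17), with an edgeR adjusted p of 0.284. Leaving out the library labelled Control 3 gave 0.67 (SE 0.16) and an edgeR adjusted p of 0.0331, a level 1.59 times that of Control. DESeq2 and limma voom with quality weights called it over the 6 libraries (adjusted p = 0.0125 and 0.0382). It rests on 178 to 338 counts per library. The log2 fold changes of its namesakes over the 6 libraries lay near or below 0: L1M2 gave −0.084 (SE 0.041), L1M2a 0.075 (SE 0.16) and L1M2c −0.30 (SE 0.17). L1M2a and L1M2c were named after their values were seen, and the differences between these members were not tested.

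**Figure D3:**
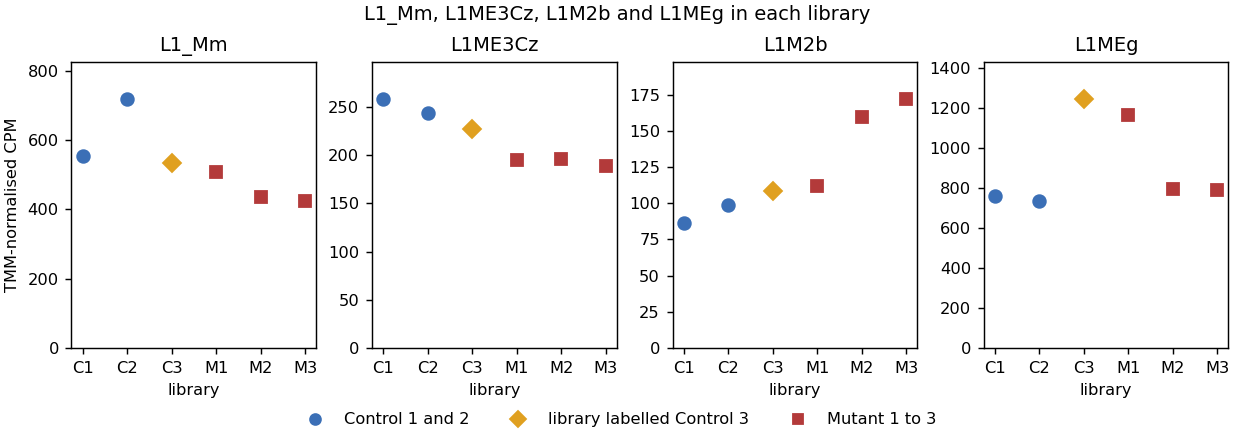
TMM-normalised CPM of L1_Mm, L1ME3Cz, L1M2b and L1MEg in Control libraries C1 to C3 and Mutant libraries M1 to M3; each point is 1 library and each axis starts at 0. L1_Mm and L1ME3Cz are lower and L1M2b is higher in each Mutant library, while L1MEg is high in C3 (1243 CPM) and M1 (1165 CPM) and lies between 732 and 793 CPM elsewhere.

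The 2 L1P members, whose names come from the primate series of the nomenclature, were the scarcest of the named subfamilies. L1PB4 stood at 18.0, 18.2 and 23.3 CPM in Control 1, 2 and 3 and 13.6, 15.6 and 14.2 CPM in Mutant 1, 2 and 3, and L1P5 at 15.1, 14.0 and 20.2 CPM in Control 1, 2 and 3 and 18.3, 18.3 and 19.3 CPM in Mutant 1, 2 and 3. L1PB4 was lower in each Mutant library and L1P5 overlapped, with log2 fold changes of −0.45 (SE 0.19) and 0.20 (SE 0.20), and −0.33 (SE 0.22) and 0.37 (SE 0.22) without the library labelled Control 3. Their 95% intervals, −0.88 to −0.0082 and −0.25 to 0.66, are wide, and neither passed in edgeR's test (adjusted p = 0.426 and 0.677). The subfamilies left out by the filter were scarcer still. L1M3a had 3 to 16 counts per library and L1M2a1 0 to 1.

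**Figure D4:**
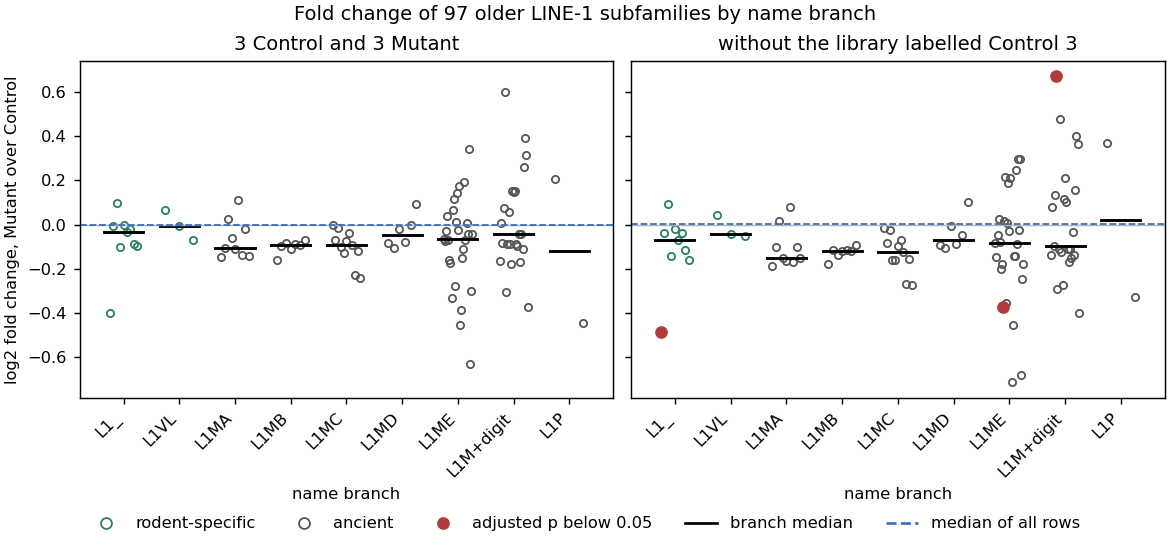
Log2 fold change of Mutant over Control for the 97 tested older LINE-1 subfamilies by name branch, over 6 libraries (left) and without the library labelled Control 3 (right); each point is 1 subfamily, black lines are branch medians and the dashed line is the median of all subfamilies. On the left all L1MB and L1MC points lie below 0, the L1ME and numbered L1M points lie on both sides of it, and the 3 filled points on the right are L1_Mm, L1ME3Cz and L1M2b.

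**Figure D5:**
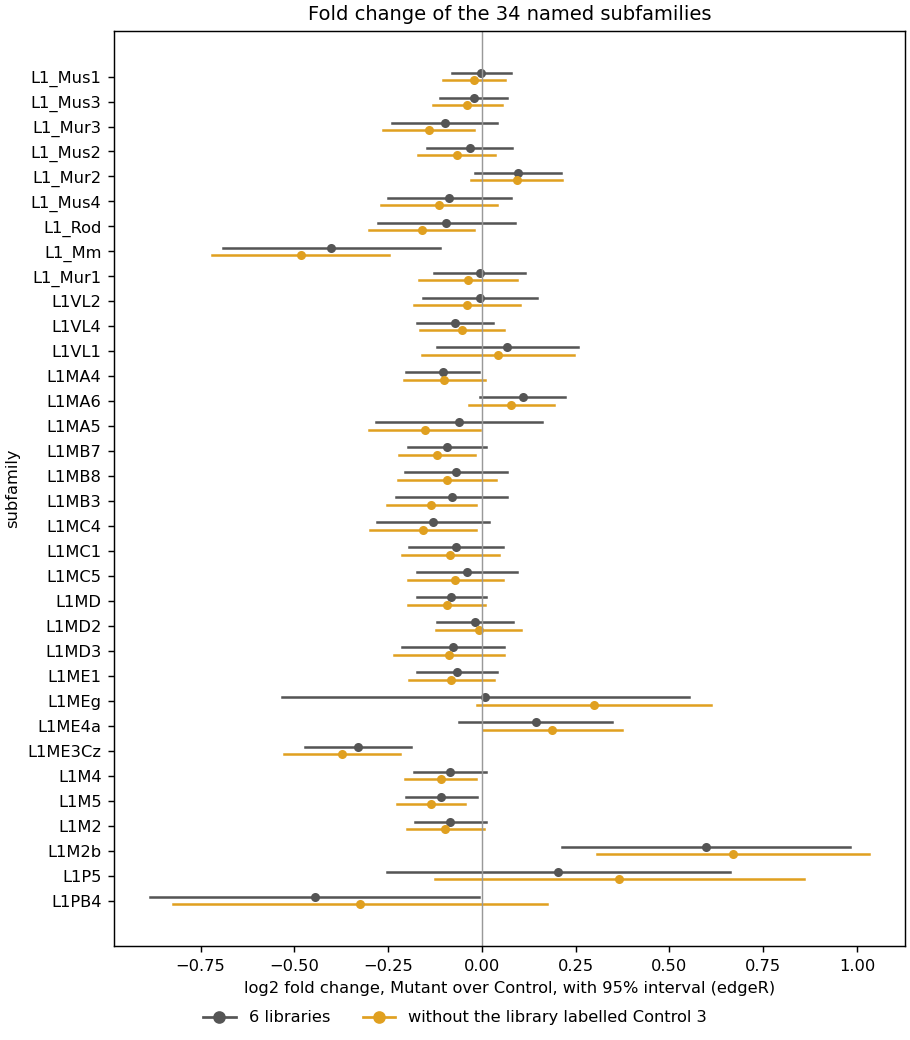
Log2 fold change of Mutant over Control with its 95% interval (edgeR) for the 34 named subfamilies, over 6 libraries (grey) and without the library labelled Control 3 (orange). Most intervals are narrow and near 0; those of L1_Mm, L1ME3Cz, L1M2b and L1M5 lie wholly on one side of 0 in both fits, and among the named members L1MEg moves most between the fits.

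The L1Md, Lx and L2 subfamilies were used as comparison. L1Md elements are the young mouse LINE-1 lineages, Lx elements are older rodent LINE-1s named outside the L1 prefix, and L2 is a separate, ancient LINE family. The 6 L1Md subfamilies summed to 13160 ± 385 CPM (Control) and 13321 ± 229.9 CPM (Mutant), the 21 Lx subfamilies to 32138 ± 546 CPM (Control) and 32073 ± 357 CPM (Mutant) and the 4 L2 subfamilies to 17735 ± 459 CPM (Control) and 17987 ± 538 CPM (Mutant) (SD, n = 3 each). The log2 differences were 0.018, −0.0029 and 0.020, against −0.055 for older LINE-1 as a whole, and −0.0068, −0.014, 0.039 and −0.074 without the library labelled Control 3. Relative to the ancient members, L1Md was higher in each Mutant library: the log2 ratio was −1.56, −1.56 and −1.59 in Control and −1.50, −1.48 and −1.51 in Mutant. This difference of means, 0.080, exceeded the spread within each group (SD 0.018 and 0.016), and it was 0.070 without the library labelled Control 3. With Lx in place of L1Md the difference was 0.059, again with no overlap between the groups. With L2 it was 0.082 (0.11 without the library labelled Control 3), and the groups overlapped, that library lying at −1.08 against −1.14 in Mutant 1. The ratio of rodent-specific to Lx sums overlapped and differed by −0.037. These contrasts of sums carry no test, and with 3 libraries a group an exact permutation test could not go below 0.10.

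The scaling matters for the direction of these small differences. IAP reads took 0.800% and 0.991% of repeat counts in Control 1 and Control 2 and 10.6% to 18.4% in Mutant, and shares sum to a fixed total. With library size alone the median log2 fold change of all 984 subfamilies moved to −0.20, and that of the older LINE-1 members to −0.27, about as far below it as with TMM. Without the library labelled Control 3 as well, 70 members were called lower and 1 higher in edgeR's test, beside 401 lower and 40 higher of all 994 subfamilies tested, whose median was −0.29. L1_Mur2, L1VL1, L1MA6, L1MEg and L1ME4a had the opposite sign under library size alone. L1_Mm, L1ME3Cz and L1M2b kept their direction under each alternative run.

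Genes known to silence or restrict LINE-1 were read from the authors' deposited gene table. Its Control and Mutant means are sums of 3 values divided by 3, within 0.01 of the last of 4 decimals, for 99.8% of the 4702 and 4847 genes with means of 20 to 90 TPM. Which libraries entered the tests of that table was not determined. Of 33 genes listed, 32 had values; 10 fell and 1 rose, against 17.1% called in all, 8.11% lower and 9.02% higher over the whole of the authors' deposited table (22631 genes). The median test estimate (statistic times standard error, log2 scale) was −0.13 for the list and 0.013 for all genes. Uhrf1, for which Mutant is labelled deficient, fell (118 to 20.4 TPM, test estimate −3.12, SE 0.60) and Dnmt1 with it (122 to 94.3 TPM, test estimate −0.37, SE 0.057) in the authors' deposited table. The de novo methyltransferase Dnmt3a fell slightly (−0.28, SE 0.10), as did the chromatin remodeller Hells (−0.43, SE 0.075), both as test estimates of the authors' deposited table. Dnmt3b did not pass in the authors' deposited table (−0.51, SE 0.30).

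Among genes of H3K9 methylation, several fell by small amounts in the authors' deposited table. Trim28, the corepressor that recruits Setdb1, fell (360.4 to 292 TPM, test estimate −0.32, SE 0.053), and the methyltransferases Setdb1 (−0.29, SE 0.075) and Suv39h1 (−0.36, SE 0.075) fell in the authors' deposited table too. Suv39h2, Ehmt1 and Ehmt2, which also methylate H3K9, did not pass in the authors' deposited table (−0.11, −0.18 and 0.046; SE 0.13, 0.072 and 0.061). The heterochromatin protein gene Cbx5 fell (231 to 196 TPM, test estimate −0.35, SE 0.049) in the authors' deposited table. Of the HUSH complex, which silences LINE-1 within genes, Pphln1 fell (−0.25, SE 0.068), as did its partner Morc2a (−0.32, SE 0.057), while Mphosph8 and Fam208a did not pass in the authors' deposited table (−0.072, SE 0.10, and 0.061, SE 0.094). None of the listed factors that act on LINE-1 RNA or its DNA copies passed: Samhd1, Mov10, Trex1, Zc3hav1, Apobec3, Adar and the 3 RNase H2 subunits had adjusted p of 0.0809 to 0.959 in the authors' deposited table. Piwil4, a piRNA pathway gene of the germline, was the member that rose, at a low level (0.578 to 1.75 TPM, test estimate 1.49, SE 0.49, in the authors' deposited table).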

How the data were processed

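Repeat subfamily counts of 3 Control and 3 Mutant libraries were used as the authors deposited them. Among the tools in the submitters' processing notes are featureCounts 2.0.1, STAR 2.7.6a, DESeq2 and Trim Galore 0.6.6, with builds GRCm38 and mm10 and no stated roles. Neither the repeat annotation nor the treatment of reads mapping to several places was given in the labels; reads of related subfamilies could be split among them. Per the file headers, the authors' repeat table holds log2 fold changes, p-values, test statistics (a score) and a mean signal of normalised counts. The authors' deposited gene table gives mean levels read here as TPM, from their totals; its header does not name the unit.

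The count test was that of edgeR 4.0.16 under R 4.3.3 (quasi-likelihood, TMM, filterByExpr, Benjamini-Hochberg over all subfamilies, threshold 0.05); the script was tested on simulated data. SE is the absolute log2 fold change over the square root of F. Alternatives used DESeq2 1.42.0, limma 3.58.1, other scaling, no filter, a replicate block and each library left out. Named members were all rodent-specific ones, the 3 with the highest mean CPM in each ancient branch, and those called in either fit. Members and lists were chosen with earlier results of these data known. Column names of the count and gene tables stand 1 field to the left of their values.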

Additional observations from a re-analysis of the deposited data

How the results depend on the processing

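The count of called members depended on the library labelled Control 3 and on the tool. It was 0 over the 6 libraries and lay between 0 and 3 when 1 library was left out, with 3 only without the library labelled Control 3. Of all subfamilies tested, 0% were called over the 6 libraries and 7.34% without that library. DESeq2 called 3 with all libraries and 3 without that library, beside 2.38% and 6.45% of all subfamilies with an adjusted p. Limma voom with quality weights called 2, beside 4.67% of all subfamilies. Library size alone without that library called 71, beside 441 of all 994 subfamilies tested. The replicate block called 0, as did the other alternatives with 6 libraries: no filter, relative log expression factors and library size alone. Same-numbered libraries had correlations of 0.287, 0.071 and 0.279, and 5 of 6 libraries correlated best with their own number. The exception was Control 2, which correlated better with Mutant 1 (0.162). The correlations are of deviations from group means, so these matches are not independent of each other, and their count was not tested. The numbers were not taken as pairs in the main fit, but a pairing is not excluded. With the replicate block, 22 members had an unadjusted p below 0.05 in edgeR's test, against 17 without it. Of all 984 subfamilies tested, 154 and 111 did so.

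With library size alone, the rodent-specific and ancient summed differences became −0.24 and −0.26, and −0.36 and −0.37 without the library labelled Control 3. Leaving out 1 library gave −0.068 to −0.016 for the rodent-specific sum, −0.076 to −0.047 for the ancient sum and 0.0083 to 0.043 for their ratio. Medians of members in place of sums gave −0.027, −0.074 and 0.046.

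Of 476 values for the 34 named members under 14 alternatives, 414 kept direction and call, 38 became called and 24 changed sign. Since edgeR called 0 members over the 6 libraries, no value could lose a call. Of the 38, 27 came from library size alone without the library labelled Control 3. Under library size alone the sign changed for L1_Mur2 (−0.11), L1VL1 (−0.13), L1MA6 (−0.096), L1MEg (−0.15) and L1ME4a (−0.058), and without the library labelled Control 3 as well for L1_Mur2 (−0.20), L1VL1 (−0.25), L1MA6 (−0.22) and L1ME4a (−0.11). With 1 library left out, log2 fold changes that crossed 0 ran from −0.037 to 0.014 for L1_Mur1, −0.021 to 0.016 for L1_Mus1, −0.058 to 0.046 for L1VL2, −0.031 to 0.0019 for L1MD2 and −0.20 to 0.30 for L1MEg. The cause was not tested. Counts per library limit the members below 100 CPM.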
